A study of Homo sapiens with 15 samples.

Results

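DNA replication genes are the subject here: 43 human genes chosen by symbol for their known part in copying DNA, out of 60612 genes in the deposited table. All 43 were found, and all 43 were among the 16841 genes that passed the filter on low counts. They are the 6 subunits of the MCM2 to MCM7 helicase, 4 origin licensing factors, 6 helicase activators, 6 genes of the sliding clamp and its loader, 9 genes of the polymerases and primase, 2 of Okazaki fragment processing, 3 subunits of replication protein A, 3 nucleotide enzymes, 3 regulators of S-phase entry, and UHRF1. RNA-seq measured their mRNA in 15 libraries of U87 and U251, which are established human glioma cell lines. The 5 groups of 3 libraries are U87 with the short hairpin RNA (shRNA) 1812, U251 with the shRNA 1812, U251 with the shRNA 1813, and control cells of U251 and of U87. Hairpins 1812 and 1813 are both directed at LAMP2A, the splice form of the lysosomal membrane protein LAMP2 that takes up substrates of chaperone-mediated autophagy. Control cells carry the genotype label WT, and the labels mention neither a non-targeting hairpin nor an empty vector. RNA is described as coming from stably transfected cells. Whether replicates are separate cultures, and whether a hairpin line is a clone, are not given in the sources used here, so p-values measure the spread between these libraries.

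Replication starts at origins that are bound by the origin recognition complex and loaded with the MCM helicase by CDC6 and CDT1. CDC45 and the GINS complex turn the loaded helicase into an active one, primase and polymerase alpha lay down primers, and polymerases delta and epsilon extend them on the PCNA clamp. Many of these genes are transcribed periodically, with E2F factors raising them as cells enter S phase, so their mRNA is often read as a sign of proliferation in tumour cells. In bulk RNA, more cells in S phase and more RNA per cell cannot be told apart.

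Library totals were 14002652 to 18924072 counts, and the 43 genes together took 0.367% to 0.667% of them. LAMP2 was at 257, 256 and 289 CPM (counts scaled to library size) in the 3 U87 libraries labelled 1812, against 195, 294 and 292 CPM in the U87 controls. In U251 it was at 314 to 328 CPM with hairpin 1812 and 388 to 419 CPM with hairpin 1813, against 659 to 711 CPM in the controls. Counts per gene do not separate the LAMP2A form, so the U87 label could not be checked and U87 directions are given for the libraries labelled 1812. Replicates 2 and 3 of both control groups stood apart from the other 11 libraries: they had more counts on long genes (count-weighted exonic length of 6.53 to 6.77 kb, against 5.61 to 5.92 kb) and more of the nuclear RNA MALAT1 (250.7 to 391 CPM, against 32.7 to 101 CPM). The glial stem cell gene SOX2 averaged 42.6 to 72.9 FPKM (fragments per kilobase of exon, scaled to library size) in the U251 groups and at most 0.0667 FPKM in the U87 groups, where the astrocyte marker GFAP was at most 0.163 FPKM. The mesenchymal filament gene VIM averaged 646 to 1057 FPKM in the 5 groups. These are 3 of 8 glioma markers that were read. In U251 against U87 controls, 4 of the 8 were higher and 2 lower at an adjusted p under 0.05 (edgeR quasi-likelihood test). Of all tested genes 24.0% were higher and 26.0% lower.

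In U87, 14 of the 43 replication genes were higher in the libraries labelled 1812 than in the controls at an adjusted p under 0.05, and 0 were lower. Such genes are named called below (edgeR quasi-likelihood test with Benjamini-Hochberg adjustment over 16841 genes). This is 32.6% of the replication genes, whereas 5.86% of all tested genes were called higher and 7.74% lower. An unadjusted p under 0.05 was reached by 20 with a higher and 0 with a lower level. Here and below, the share of all tested genes at an unadjusted p was not counted. DESeq2 called 17 higher and 0 lower, among 8.22% and 11.0% of the genes it tested. The median log2 fold change of the 43 genes was 0.45, against -0.03 over all tested genes, and 40 of the 43 had a positive sign. The values ran from -0.40 for RFC1 to 1.00 for CCNE2. For 16 of the 43 genes the 3 libraries labelled 1812 lay above all 3 controls, and for 0 they lay below, where 11.9% and 12.2% of all tested genes did so. The exact two-sided permutation test of log2(FPKM + 1) gave a p of 0.1 for each of the 14 called genes, the smallest that the 20 arrangements of 3 against 3 libraries allow.

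The size of this difference rested on which control libraries were used. U87 control replicate 1 lay above both other controls for 38 of the 43 genes, with a median ratio of 1.65-fold to their mean, and was over 1.5-fold above it for 28 genes. Over all tested genes 25.3% were that far above, and the median log2 ratio was -0.05. Replicate 1 also lay above both others for 35 of the 43 genes in the U87 libraries labelled 1812 (median 1.21-fold to their mean). In U251 it did so for 33 genes in the controls (1.22-fold), 27 with hairpin 1813 (1.07-fold) and 6 with hairpin 1812 (0.93-fold). Median log2 ratios over all tested genes were -0.01 to 0 in these groups, and the share above both others was not counted. U87 control replicate 1 lay above all 3 U87 libraries labelled 1812 for 14 genes, among them for 11 and below all 3 for 18. The 14 called genes were among these 18. Against U87 control replicates 2 and 3, the 3 libraries labelled 1812 were higher for 41 of the 43 genes, all but RFC1 and POLE2. These places were counted for the 43 genes only, so no share of all tested genes stands beside them.

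Without U87 control replicate 1, 40 of the 43 genes (93.0%) were called higher and 1, RFC1, lower, among 23.5% and 23.2% of the 17441 genes tested. Against control replicate 1 alone, 6 genes (14.0%) were called higher and 1 (2.33%) lower, among 12.1% and 9.52% of 17560 genes, a share close to the background. That fit assumes that a lone library varies like the other groups. The median over the 43 genes was 0.85 without replicate 1 and 0.00 against it alone. CCNE2, POLA1, MCM10, RFC3 and RRM1 were called higher in both of these fits and with all 3 controls. A further fit added a term for control replicates 2 and 3 of both lines, which no label sets apart. It is named the library type term below and assumes the same shift in both lines. With this term 7 genes were called higher (16.3%, against 8.02% of all genes), the 5 just named together with RFC4 and POLD3. In a fit of the 6 U87 libraries alone 0 of the 43 were called in either direction, although 16 reached an unadjusted p under 0.05 on the higher side. Only 1 of the 14729 genes tested in that fit was called higher, and 0 lower.

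**Figure D1:**
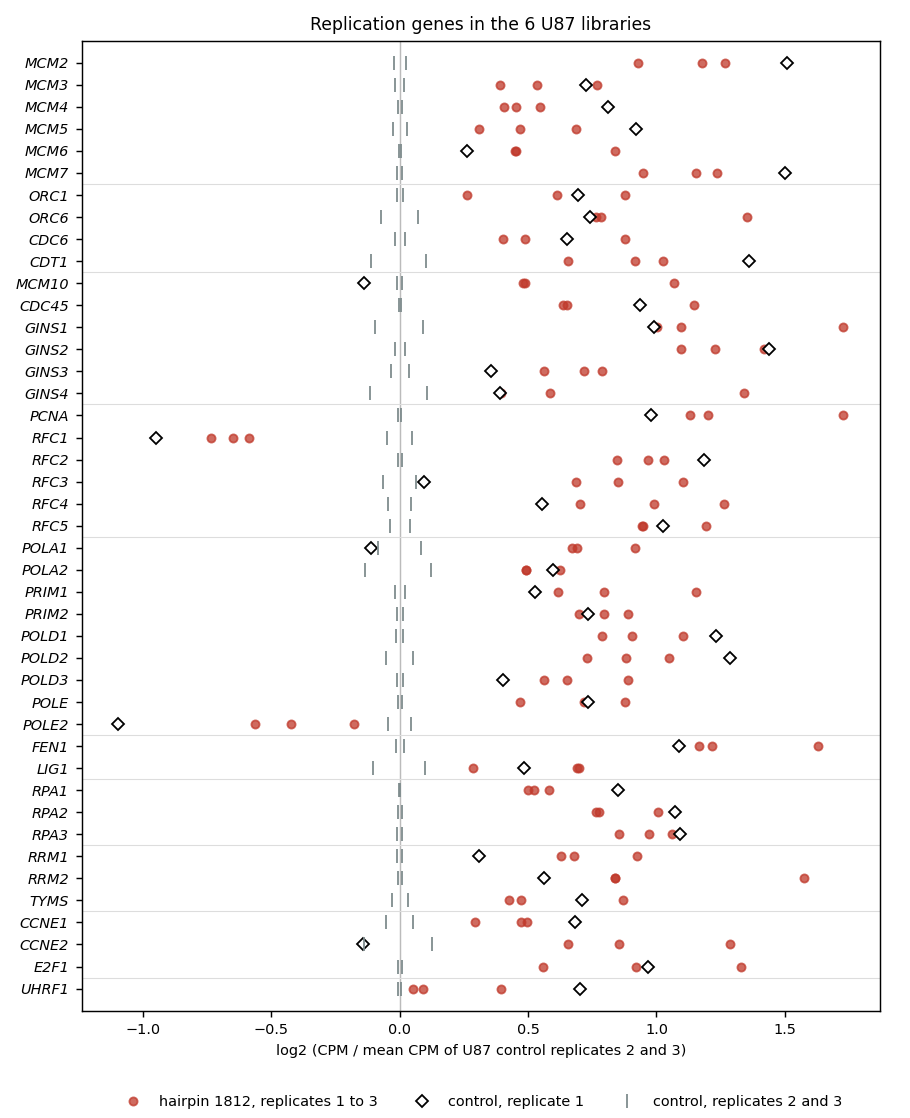
Each line is a replication gene, and the x axis is the log2 ratio of its CPM to the mean CPM of U87 control replicates 2 and 3. Filled circles are the 3 libraries labelled 1812, the open diamond is control replicate 1 and grey ticks are control replicates 2 and 3. The circles lie to the right of both ticks for 41 of 43 genes, and the diamond lies right of all 3 circles for 14 genes and left of them for 18. The share of all tested genes in these places was not counted.

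The genes that kept their call against either set of controls come from different steps of replication. POLA1, the catalytic subunit of the polymerase that extends primers, was at 81.7, 68.9 and 69.9 CPM in the U87 libraries labelled 1812, against 40.1, 40.8 and 45.9 CPM in the U87 controls. All 3 controls lay close together and far below the other group (1.74-fold, log2 fold change 0.80, standard error or SE 0.13, adjusted p 0.00232). RFC3, a subunit of the loader that places PCNA on DNA, was at 117, 87.1 and 97.8 CPM in the libraries labelled 1812, against 57.9, 51.8 and 56.6 CPM in the controls (log2 fold change 0.86, SE 0.13, adjusted p 0.00146). Its controls, too, lay close together. CCNE2, a cyclin that activates CDK2 at the start of S phase, was at 50.5, 32.6 and 37.4 CPM, against 18.7, 18.8 and 22.6 CPM in the controls, and had the highest fold change of the 43 genes (2.00-fold, log2 1.00, SE 0.18, adjusted p 0.00373). MCM10, which helps to activate the loaded helicase, was at 77.9, 51.7 and 52.0 CPM in the libraries labelled 1812, against 33.7, 37.4 and 36.8 CPM in the controls (log2 fold change 0.75, SE 0.16, adjusted p 0.0083). RRM1, the large subunit of the ribonucleotide reductase that makes deoxynucleotides, was at 405, 329 and 342 CPM, against 264, 215 and 212 CPM in the controls (log2 fold change 0.64, SE 0.13, adjusted p 0.00795). Against control replicate 1 alone the log2 fold changes were 1.10 for CCNE2, 0.87 for POLA1, 0.84 for MCM10, 0.79 for RFC3 and 0.44 for RRM1.

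Promoter sequences are shown because E2F factors are known regulators of the family. The 4 genes are those with the smallest adjusted p in U87 among the members with a promoter in the set used. All 4 are among the 5 genes just named, and CCNE2 had no promoter in that set. The sequences are from RefSeq (GRCh38.p14), 250 bases before to 50 after the annotated start, and read 5′ to 3′ on the plus strand, which is the gene's strand for all 4. Capitals mark the E2F words TTTCCCGC, TTTCGCGC, TTTGCCGC and TTTGGCGC and the word CCAAT, each on either strand. RFC3 is at chr13:33817899-33818198, POLA1 at chrX:24693668-24693967, RRM1 at chr11:4094435-4094734 and MCM10 at chr10:13161308-13161607.
RFC3: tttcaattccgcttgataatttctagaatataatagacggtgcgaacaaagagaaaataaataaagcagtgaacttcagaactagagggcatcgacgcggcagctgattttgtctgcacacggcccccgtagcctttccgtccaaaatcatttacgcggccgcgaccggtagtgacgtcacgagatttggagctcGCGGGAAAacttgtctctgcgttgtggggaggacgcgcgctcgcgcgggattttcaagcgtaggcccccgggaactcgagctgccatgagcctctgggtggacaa
POLA1: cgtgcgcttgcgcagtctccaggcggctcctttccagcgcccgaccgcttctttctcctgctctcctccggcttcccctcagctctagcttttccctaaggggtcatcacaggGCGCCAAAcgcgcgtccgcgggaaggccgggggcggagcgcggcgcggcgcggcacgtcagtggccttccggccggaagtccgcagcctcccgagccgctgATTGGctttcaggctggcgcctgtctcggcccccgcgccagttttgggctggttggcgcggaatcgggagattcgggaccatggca
RRM1: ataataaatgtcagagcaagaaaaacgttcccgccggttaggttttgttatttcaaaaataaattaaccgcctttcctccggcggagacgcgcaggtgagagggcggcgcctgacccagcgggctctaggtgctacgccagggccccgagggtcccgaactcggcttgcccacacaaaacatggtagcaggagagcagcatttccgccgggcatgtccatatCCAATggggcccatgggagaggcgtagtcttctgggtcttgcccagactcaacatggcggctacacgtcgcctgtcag
MCM10: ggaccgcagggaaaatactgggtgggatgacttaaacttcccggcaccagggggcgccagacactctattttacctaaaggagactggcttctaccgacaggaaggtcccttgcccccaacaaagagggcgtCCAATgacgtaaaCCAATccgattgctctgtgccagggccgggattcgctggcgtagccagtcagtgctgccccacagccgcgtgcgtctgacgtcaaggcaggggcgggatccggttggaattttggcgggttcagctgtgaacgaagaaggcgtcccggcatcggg
RFC3 holds an E2F word 55 bases before its start, and POLA1 holds an E2F word 137 bases before its start together with a CCAAT box in reverse orientation at 36 bases before it. RRM1 has a CCAAT box 28 bases before its start, and MCM10 has a pair of them, 118 and 105 bases before its start. Neither of these promoters has one of the 4 exact E2F words in its window, and looser forms of the site were not searched.

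Of the 43 genes, 36 matched a RefSeq promoter by symbol, with 46 windows of 300 bases in all. An E2F word occurred in 20 of the 46 windows (43.5%), and in 1164 of the 35116 promoters of the whole table (3.31%). CCAAT occurred in 28 of the 46 windows (60.9%), and in 34.6% of all promoters. The word TTTGAA or TTCGAA, known from cell cycle genes that peak in mitosis, was found on either strand in 2 windows (4.35%) and in 16.4% of all promoters. Median GC content was 67.5% in the members' windows and 58.7% in all of them. Of the 12 called genes with a promoter, 5 had an E2F word and 8 a CCAAT box. Of the 24 other genes with a promoter, 14 had an E2F word and 14 a CCAAT box. These are matches of letters, described without a test.

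The remaining called genes in U87 had 1 high control each. In the clamp and its loader, PCNA, the ring that holds polymerases on DNA, was at 395, 261 and 274 CPM in the libraries labelled 1812, against 235, 119.7 and 119 CPM in the controls (log2 fold change 0.98, SE 0.27, adjusted p 0.0298). Control replicate 1 lies just under the lowest library labelled 1812, while replicates 2 and 3 are far below it. RFC4, another loader subunit, was at 109, 74.2 and 90.5 CPM, against 66.9, 47.0 and 44.1 CPM in the controls (log2 fold change 0.80, SE 0.17, adjusted p 0.00883). RFC2 (0.44, adjusted p 0.31) and RFC5 (0.61, adjusted p 0.0909) were not called. RFC1, the largest loader subunit, went the other way in sign, with 74.8, 70.5 and 78.2 CPM in the libraries labelled 1812, against 60.7, 113 and 121 CPM in the controls (log2 fold change -0.40, adjusted p 0.195). Its control replicate 1 was the lowest of the 6 U87 libraries.

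Among the helicase activators, GINS1 and GINS3 were called next to MCM10. GINS1, a subunit of the GINS complex, was at 52.2, 31.6 and 33.7 CPM in the libraries labelled 1812, against 31.3, 14.7 and 16.8 CPM in the controls (log2 fold change 0.90, SE 0.25, adjusted p 0.0311). GINS3 was at 38.1, 40.0 and 34.2 CPM, against 29.6, 22.6 and 23.8 CPM in the controls (log2 fold change 0.56, SE 0.15, adjusted p 0.0252). For both, the highest control lay below the lowest library labelled 1812. GINS2 (0.61), GINS4 (0.69) and CDC45 (0.45) had positive values with adjusted p of 0.221, 0.0702 and 0.216. Of the licensing factors ORC6, the smallest subunit of the origin recognition complex, was called, at 109, 72.4 and 73.4 CPM in the libraries labelled 1812, against 71.2, 40.5 and 44.7 CPM in the controls (log2 fold change 0.70, SE 0.21, adjusted p 0.0383). ORC1, CDC6 and CDT1 had log2 fold changes of 0.33, 0.35 and 0.27 with adjusted p of 0.21 or more.

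None of the 6 MCM2 to MCM7 subunits was called in U87, where edgeR gave log2 fold changes of 0.12 for MCM5 to 0.50 for MCM6. MCM6 came closest (SE 0.17, adjusted p 0.0582, DESeq2 called it higher) with 374, 286 and 287 CPM in the libraries labelled 1812, against 250.5, 209 and 209.7 CPM in the controls. MCM7 was at 486, 459 and 398 CPM, against 584, 208 and 205 CPM in the controls, and MCM2 at 236, 222 and 187 CPM, against 279, 99.9 and 96.6 CPM. For MCM2, MCM4, MCM5 and MCM7 control replicate 1 was the highest of all 6 U87 libraries. Their log2 fold changes against it alone are negative, and those against the other controls are positive.

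Of the polymerase and primase genes, PRIM1 and POLD3 were called as well as POLA1. PRIM1, the catalytic subunit of primase, was at 47.0, 32.5 and 36.7 CPM in the libraries labelled 1812, against 30.5, 21.4 and 20.9 CPM in the controls (log2 fold change 0.67, SE 0.19, adjusted p 0.0292). POLD3, an accessory subunit of polymerase delta, was at 48.2, 38.4 and 40.9 CPM, against 34.4, 25.8 and 26.2 CPM in the controls (log2 fold change 0.56, SE 0.14, adjusted p 0.0184). The other subunits POLA2, PRIM2, POLD1, POLD2 and POLE had log2 fold changes of 0.31, 0.51, 0.40, 0.33 and 0.41, and POLE2 one of -0.10. POLE2, a non-catalytic subunit of polymerase epsilon, had its lowest U87 level in control replicate 1, at 13.4, 10.2 and 11.3 CPM in the libraries labelled 1812, against 7.07, 14.7 and 15.6 CPM in the controls. Against control replicate 1 alone it was called higher (log2 fold change 0.71).

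FEN1, the nuclease that trims Okazaki fragments, was at 344, 249 and 258 CPM in the libraries labelled 1812, against 236, 112 and 109.9 CPM in the controls (log2 fold change 0.89, SE 0.26, adjusted p 0.0332). The ligase gene LIG1 had 0.39 with an adjusted p of 0.143. RRM2, the small subunit of ribonucleotide reductase, was at 939.6, 563 and 563 CPM, against 465, 314 and 317 CPM in the controls (log2 fold change 0.92, SE 0.22, adjusted p 0.0161). TYMS, which makes thymidylate, had 0.33 with an adjusted p of 0.361. The replication protein A genes RPA1, RPA2 and RPA3, whose products coat unwound DNA, had 0.19, 0.40 and 0.50 and were not called. CCNE1 and E2F1, the other regulators of S-phase entry, had 0.16 and 0.57 with adjusted p of 0.599 and 0.221. UHRF1, which binds hemimethylated DNA behind the fork, had -0.09, at 141, 114 and 111 CPM in the libraries labelled 1812, against 174, 108 and 107 CPM in the controls, and was called lower against control replicate 1 alone (-0.52, adjusted p 0.0173).

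**Figure D2:**
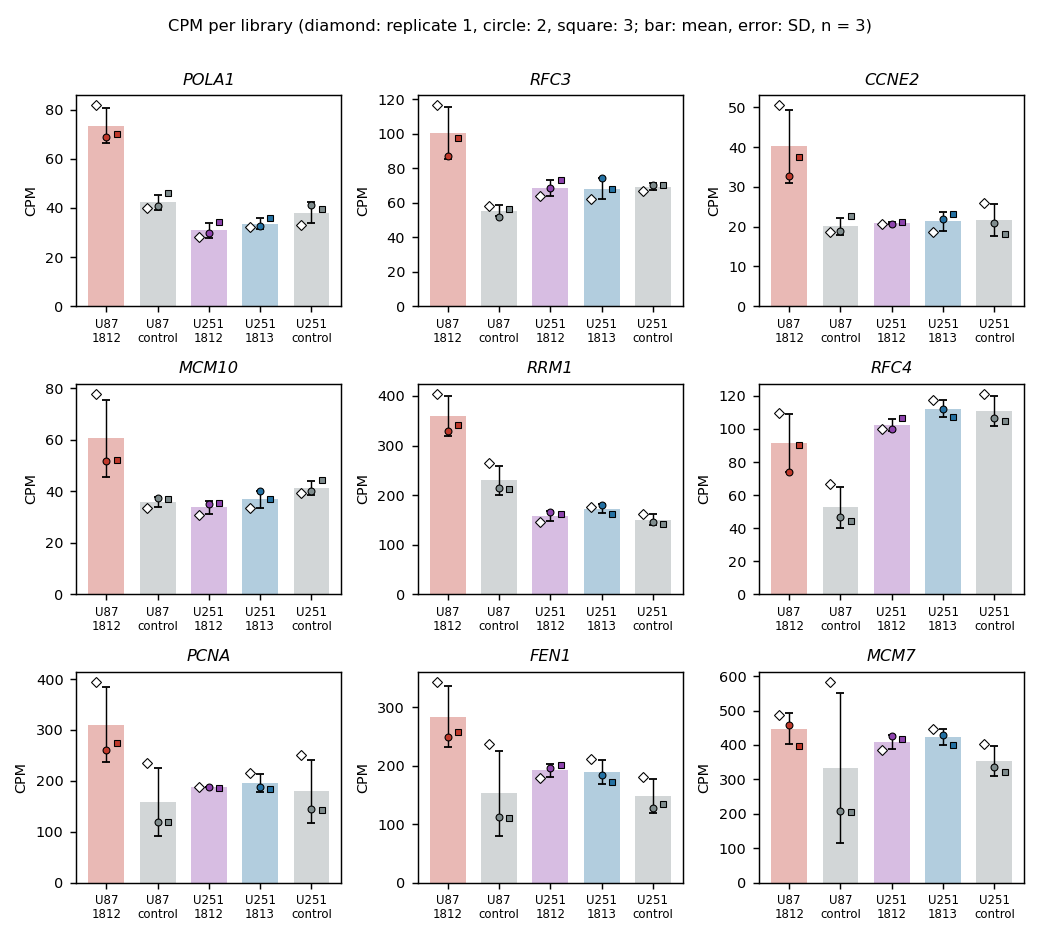
CPM of 9 replication genes in each library, by group, with bars for the mean, error bars for the SD (n = 3) and symbols for the replicate number. POLA1, RFC3, CCNE2 and MCM10 have all U87 controls close together and below the libraries labelled 1812, while for PCNA, FEN1 and MCM7 U87 control replicate 1 (diamond) stands above the other controls.

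**Figure D3:**
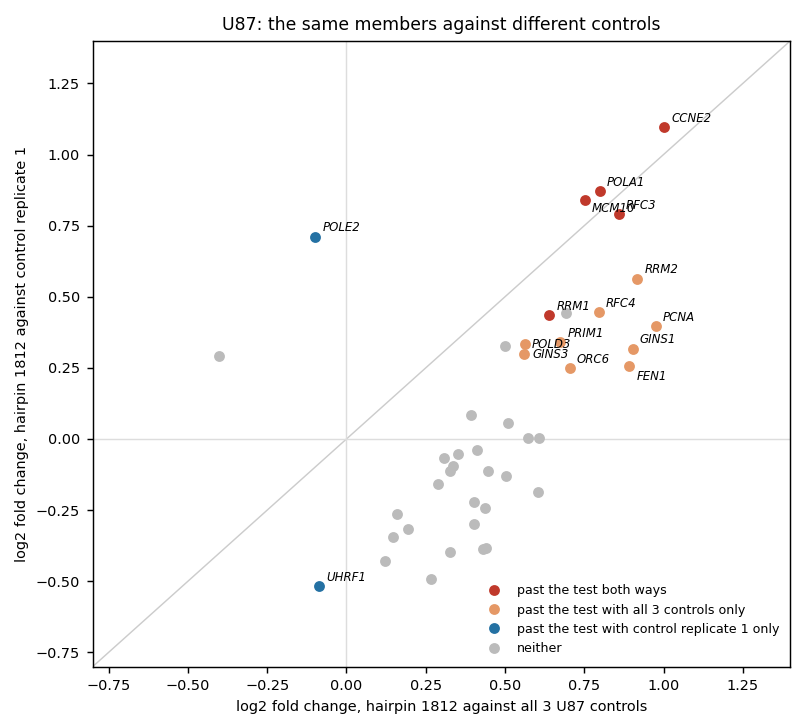
Log2 fold changes of the 43 genes in U87, with all 3 controls on the x axis and with control replicate 1 alone on the y axis. The 5 genes called both ways are in red at the upper right, and the median on the y axis is 0.00 against 0.45 on the x axis.

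Several of the called genes share their locus with another gene. Of the 43 genes, 27 overlap another annotated gene, and 10 overlap one with over 10% of their own counts, 8 of these on the opposite strand. RFC4 overlaps EIF4A2 on the opposite strand, with 507% of the RFC4 counts, and EIF4A2 had a log2 fold change of 0.05 (adjusted p 0.917) in U87. CCNE2 overlaps INTS8 and NDUFAF6, which had 0.31 and 0.03 (adjusted p 0.0917 and 0.954). POLA1 overlaps EEF1B2P3, at 45.6% of its counts (log2 fold change 0.31, adjusted p 0.545). PRIM1 overlaps NACA on the same strand, with 1668% of the PRIM1 counts, and NACA itself was called higher (0.69, adjusted p 0.0321), so the PRIM1 value is uncertain. FEN1 overlaps FADS2 on the same strand, at 24.2% of its counts (0.13, adjusted p 0.879). Whether the counting used the strand is not given in the sources used here.

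In U251 no replication gene passed the test with either hairpin. With hairpin 1812, 0 were called higher and 0 lower, among 0.410% and 0.582% of all tested genes, and an unadjusted p under 0.05 was reached by 0 on the higher and 2 on the lower side. The median log2 fold change was 0.06, against 0.01 over all tested genes, and 27 had a positive sign. With hairpin 1813, 0 were called higher and 0 lower, among 0.0178% and 0.0297% of all tested genes, and 0 passed an unadjusted p under 0.05 in either direction. Its median was 0.13, against -0.02 over all tested genes, with 31 positive signs. DESeq2 also called 0 in each direction for both hairpins, among 1.98% higher and 3.32% lower of the genes it tested with hairpin 1812 and 0.574% and 1.44% with hairpin 1813. The 2 hairpins share the same controls, so that their values are not independent.

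The values themselves were small. With hairpin 1812 the highest were CDT1 at 0.40 (SE 0.29) and CDC45 at 0.39 (SE 0.24), and the lowest were UHRF1 at -0.49 (SE 0.17) and POLE at -0.40 (SE 0.19). With hairpin 1813 the highest were POLD2 at 0.49 (SE 0.30) and RPA3 at 0.47 (SE 0.29), and the lowest were POLE at -0.34 (SE 0.19) and RFC1 at -0.19 (SE 0.20). Libraries with hairpin 1812 lay above all controls for 6 of the 43 genes and below for 4, among 14.9% and 13.7% of all tested genes. Those with hairpin 1813 lay above for 4 and below for 1, among 13.0% and 12.6%. POLE, the catalytic subunit of the leading-strand polymerase, was below all controls with both hairpins, at 53.9, 60.6 and 51.4 CPM with hairpin 1812 and 57.1, 61.5 and 53.8 CPM with hairpin 1813, against 62.0, 75.7 and 80.9 CPM in the controls (adjusted p 0.325 and 0.421). POLA1 and RFC3, which were called in U87, were not called in U251. POLA1 had 28.3, 29.8 and 34.4 CPM with hairpin 1812 and 32.1, 32.8 and 36.0 CPM with hairpin 1813, against 33.2, 41.2 and 39.6 CPM in the controls (log2 fold changes -0.30 and -0.18). RFC3 had 64.1, 68.4 and 73.1 CPM with hairpin 1812 and 62.1, 74.2 and 68.0 CPM with hairpin 1813, against 67.1, 70.2 and 70.6 CPM in the controls, and its groups overlap fully.

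UHRF1 had the largest log2 fold change of hairpin 1812 in U251 in absolute size. It was at 68.6, 74.0 and 69.1 CPM with hairpin 1812 and at 95.6, 100.1 and 97.4 CPM with hairpin 1813, against 98.0, 99.4 and 100.1 CPM in the controls. The 3 libraries with hairpin 1812 lie together well below the other 6, which overlap each other. The log2 fold change of hairpin 1812 against the controls was -0.49 (95% interval -0.86 to -0.13, adjusted p 0.19) with the spread estimated from all 15 libraries. It was called lower in a fit of those U251 groups alone (-0.51, adjusted p 0.0265), with the library type term (-0.74, adjusted p 0.0237) and without U87 control replicate 1 (-0.48, adjusted p 0.00747), but not by DESeq2 (-0.51, adjusted p 0.0785) or against control replicate 1 alone (-0.47, adjusted p 0.123). UHRF1 was singled out after its values were seen.

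Between the hairpins in U251, 0 of the 43 genes were called higher with 1812 than with 1813 and 0 lower, among 0.0475% and 0.0297% of all tested genes, and an unadjusted p under 0.05 was reached by 0 and 1. DESeq2 called 0 in each direction. The median log2 difference was -0.09, against 0.00 over all tested genes, and 12 had a positive sign. The libraries with 1812 lay above all those with 1813 for 1 gene, RPA2, and below for 8, among 12.2% and 12.1% of all tested genes. The lowest were POLD2 (-0.48, SE 0.30, adjusted p 0.976) and UHRF1 (-0.47, SE 0.17, adjusted p 0.611), and the highest were POLA2 (0.30, SE 0.20, adjusted p 0.982) and POLD3 (0.12, SE 0.14). POLD2, a subunit of polymerase delta, was at 147, 169 and 155 CPM with 1812, against 228, 217 and 212 CPM with 1813, and the U251 controls spanned both ranges at 221, 129 and 120.1 CPM. In a fit of these 2 groups alone POLD2 (-0.48, adjusted p 0.012) and UHRF1 (-0.47, adjusted p 0.0107) were called lower with 1812.

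**Figure D4:**
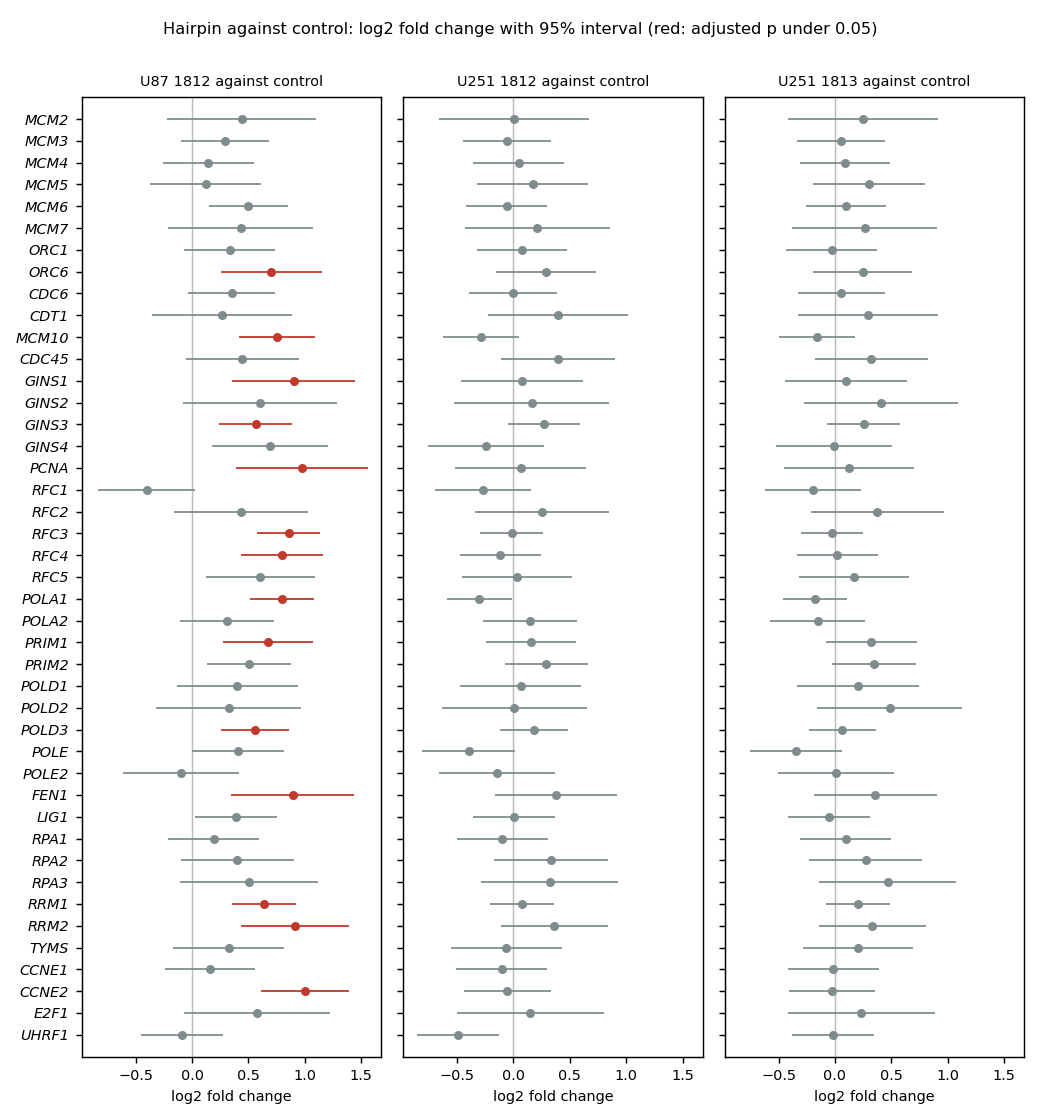
Log2 fold changes with 95% intervals for the 43 genes in the 3 comparisons of hairpin with control, in the same order of genes in each panel, with called genes in red. The U87 panel has 14 called genes, all to the right of 0, and the U251 panels have 0.

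The difference between the libraries labelled 1812 and the controls was compared directly between the lines, as the log2 fold change in U87 minus that in U251. LAMP2 itself had 0.04 in U87 (adjusted p 0.892) and -1.12 in U251 (adjusted p 0.00353), so the whole gene was called lower in U251 and not in the U87 libraries of the same label. The difference was called higher in U87 for 5 of the 43 genes and lower for 0, among 2.19% and 2.32% of all tested genes, and 11 against 0 reached an unadjusted p under 0.05. DESeq2 called 6 higher and 0 lower, among 4.61% and 4.87%. The 5 were POLA1 at 1.10 (SE 0.19, adjusted p 0.00695), CCNE2 at 1.06 (SE 0.25, adjusted p 0.0311), MCM10 at 1.04 (SE 0.22, adjusted p 0.0208), RFC4 at 0.91 (SE 0.24, adjusted p 0.0448) and RFC3 at 0.88 (SE 0.18, adjusted p 0.0184), all 5 among the 14 called in U87. The median difference over the 43 genes was 0.39, against -0.05 over all tested genes, and 40 had a positive sign. The lowest values were -0.13 for both RFC1 and CDT1. Against control replicate 1 of each line alone, 4 were called higher, POLA1, MCM10, CCNE2 and MCM6, among 6.09% of all genes, and the median was 0.15. With the library type term 12 were called higher, among 7.07% of all genes. POLA1 was called in each of the 22 alternative fits, with differences of 0.98 to 1.19.

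The control cells of the lines differed in which replication genes were high. Compared with U87 controls, U251 controls had 4 of the 43 genes called higher and 6 lower, which is 9.30% and 14.0% of them, among 24.0% and 26.0% of all tested genes. With the replicate number as a block, 8 were called higher and 8 lower, among 25.9% and 27.1% of all tested genes. The median log2 difference was 0.07, against -0.04 over all tested genes, and 22 had a positive sign. U251 control libraries lay above all U87 controls for 7 genes and below for 6, among 25.7% and 25.0% of all tested genes. Higher in U251 were RFC4 (1.07, SE 0.17, adjusted p 0.000103), ORC6 (1.02, SE 0.21, adjusted p 0.000904), RPA1 (0.54, SE 0.19, adjusted p 0.0264) and POLD3 (0.49, SE 0.14, adjusted p 0.00895). Lower in U251 were MCM6 (-1.37, SE 0.17, adjusted p 9.15e-06), MCM5 (-1.04, SE 0.23, adjusted p 0.00174), MCM4 (-1.03, SE 0.19, adjusted p 0.00037), MCM2 (-0.79, SE 0.31, adjusted p 0.0475), CDC45 (-0.75, SE 0.24, adjusted p 0.0155) and RRM1 (-0.62, SE 0.13, adjusted p 0.00137). MCM3 (-0.23, adjusted p 0.32) and MCM7 (0.09, adjusted p 0.829) were not called. Without U87 control replicate 1, MCM2 (-0.09, adjusted p 0.61) and CDC45 (-0.36, adjusted p 0.0779) were no longer called, MCM5 was at -0.66 and RPA1 at 0.89. MCM2 kept its call in 8 of the 22 alternative fits, CDC45 in 18, RPA1 in 17 and POLD3 in 19, and MCM4, MCM5, MCM6, ORC6, RFC4 and RRM1 kept theirs in all 22.

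The helicase subunits, which assemble in equal numbers in the protein complex, had uneven FPKM values that differed by line. FPKM divides by the deposited exonic length of a gene, 7268 bases for MCM5, 4386 for MCM7 and 4135 for MCM6. Comparisons between genes in FPKM depend on these lengths, and the lengths of the expressed transcripts were not tested. In FPKM MCM6 averaged 20.9 ± 0.425 in U251 with 1812, 22.5 ± 0.750 in U251 with 1813 and 22.0 ± 4.44 in U251 control. It averaged 69.9 ± 11.9 in U87 labelled 1812 and 52.4 ± 0.876 in U87 control (SD, n = 3 each). MCM7 averaged 97.4, 96.9 and 85.1 FPKM in the same U251 groups and 93.4 and 71.3 FPKM in the U87 groups. The ratio of MCM7 to MCM6 was 4.66 ± 0.148 with 1812, 4.32 ± 0.316 with 1813 and 3.93 ± 0.437 in controls of U251, and 1.35 ± 0.148 with the label 1812 and 1.35 ± 0.731 in controls of U87. The U87 control ratio was 2.20 in replicate 1, where MCM7 was high, and as low as 0.922 in the others. The level of the highest subunit over the lowest was 6.59, 6.23 and 6.42 in U251 with 1812, with 1813 and in controls, with MCM7 highest and MCM5 lowest each time. It was 3.63 in U87 labelled 1812 (MCM7 over MCM5) and 3.13 in U87 control (MCM3 over MCM5). MCM3 averaged 69.0 to 72.8 FPKM in U251 and 77.4 to 90.2 FPKM in U87, MCM4 28.3 to 28.7 and 52.1 to 55.1 FPKM, MCM2 20.4 to 23.1 and 31.7 to 41.7 FPKM, and MCM5 13.3 to 15.6 and 24.7 to 25.8 FPKM.

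**Figure D5:**
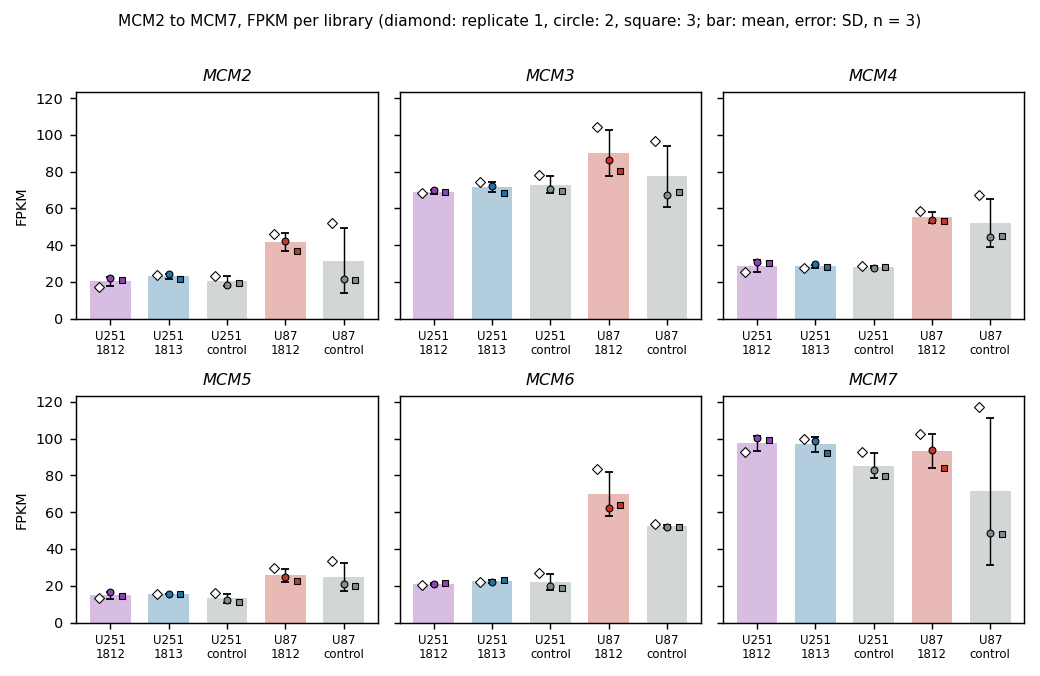
FPKM of the 6 helicase subunits in each library, by group, on a common y axis, with bars for the mean, error bars for the SD (n = 3) and symbols for the replicate number. The means of MCM2, MCM4, MCM5 and MCM6 are lower in each U251 group than in each U87 group, and MCM7 is at 85.1 to 97.4 FPKM on average in U251.

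Over all 43 genes PCNA had the highest FPKM and POLA2 the lowest in every group. PCNA averaged 140 FPKM with either hairpin in U251 and 135 FPKM in U251 control, and 203 FPKM in U87 labelled 1812 and 107 FPKM in U87 control. POLA2, the regulatory subunit of polymerase alpha, averaged 2.40 and 1.87 FPKM with 1812 and 1813 in U251 and 2.21 FPKM in U251 control, and 2.54 FPKM in U87 labelled 1812 and 2.16 FPKM in U87 control. In the clamp loader RFC2 was the highest subunit in all 5 groups, at 66.7, 69.7 and 56.4 FPKM in U251 with 1812, with 1813 and in control, and 45.6 and 34.9 FPKM in U87 labelled 1812 and control. Among the GINS genes GINS2 was the highest in all 5 groups, at 10.4 to 16.9 FPKM.

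Related gene lists were read beside these genes, with 5.86% of all tested genes called higher and 7.74% lower in U87. Of 32 other replication genes, 5 were called higher and 0 lower in the U87 libraries labelled 1812 (median log2 fold change 0.31). ORC3, an origin recognition subunit, had 0.75 (adjusted p 0.00167), the RNase H2 subunit gene RNASEH2B 0.67 (adjusted p 0.00587), the licensing inhibitor gene GMNN 0.66 (adjusted p 0.013) and DSCC1, a subunit of an alternative clamp loader, 0.66 (adjusted p 0.0291). Of 18 nucleotide supply genes 2 were called higher and 0 lower (median 0.18), among them DUT, which breaks down dUTP, at 0.71 (adjusted p 0.0447). Of 15 genes of chromatin replication 2 were called higher and 0 lower (median 0.34), HMGB2 at 0.84 and HAT1 at 0.44. Of 31 genes of E2F and RB control 29 were tested, all but CCND2 and CDKN2C, and 6 were called higher and 2 lower (median 0.27). FBXO5, an inhibitor of the anaphase-promoting complex, had 0.99 (adjusted p 0.00107), the ubiquitin ligase subunit gene SKP2 0.76 (adjusted p 0.00176), the repressor gene E2F8 0.88 (adjusted p 0.0167) and E2F5 -0.89 (adjusted p 0.0149). Of 33 mitosis genes 6 were called higher and 0 lower (median 0.35), among them CDK1 at 0.90 (adjusted p 0.00176), NDC80 at 0.73 (adjusted p 0.00195), TTK at 0.69 (adjusted p 0.00428) and NUSAP1 at 0.80 (adjusted p 0.0282).

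Against control replicate 1 alone, 11 other replication genes were called higher and 0 lower, with 2 and 3 for nucleotide supply, 4 and 1 for chromatin replication, 7 and 1 for E2F and RB control and 11 and 2 for mitosis, where 12.1% of all tested genes were called higher and 9.52% lower. Without U87 control replicate 1 the counts in the same order were 13 and 1, 11 and 1, 8 and 1, 16 and 3, and 20 and 2, where 23.5% and 23.2% of all genes were called. In U251 edgeR called 0 genes of the 5 lists in either direction with either hairpin. The mitosis list had a median of -0.28 with 1812 and of 0.06 with 1813. At an unadjusted p under 0.05, 13 of its genes had a lower level with 1812 and 0 a higher one. With 1813, 2 were higher and 0 lower at that cutoff. The share of all tested genes at that cutoff was not counted. With hairpin 1812 DESeq2 called 5 mitosis genes and 1 chromatin replication gene lower, and 1 of the other replication genes higher and 1 lower. With hairpin 1813 it called 2 of the other replication genes higher. The mitosis genes called lower with hairpin 1812 numbered 3 against control replicate 1 alone, among 0.780% of all genes (0.484% higher), and 11 without U87 control replicate 1, among 6.64% (6.00% higher). In the difference between the lines, where 2.19% of all genes were called higher and 2.32% lower, the mitosis list had 9 genes called higher in U87 and 0 lower (median 0.62), and E2F and RB control had 3 and 0 (SKP2, E2F8 and FBXO5). Chromatin replication had 1 and 0 (ATAD2) and the other replication genes 0 and 1 (POLD4, a small subunit of polymerase delta, at -0.90). Nucleotide supply had 1 and 0, with a median of 0.08, against -0.05 over all tested genes. Markers of other cells were near 0: of PTPRC, PECAM1, EPCAM, MYH11 and RBFOX3, PTPRC and RBFOX3 did not pass the filter, and the 5 summed to 8.09 to 9.46 CPM in the U87 libraries labelled 1812, against 3.32 to 6.60 CPM in the U87 controls. PECAM1 was called higher in them (1.93, adjusted p 0.0345) at a mean of 0.813 FPKM, against 0.217 FPKM in the controls, and the part of such cells in the results was not tested.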

How the data were processed

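Total RNA depleted of ribosomal RNA was sequenced with strand marking by dUTP, per the labels' protocols, which name more than 1 extraction kit and sequencer without tying them to libraries. Per the submitters' processing notes, bcl2fastq 2.17.1.14, cutadapt 1.9.1, HISAT2 2.0.1, HTSeq 0.6.1 and GRCh38 were used. No source used here gives the counting strand or the annotation. The authors deposited read counts per gene and FPKM values for 15 libraries, and FPKM recomputed from the counts and deposited exonic lengths matched within 0.005.

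The counts were tested with edgeR 4.0.16 in R 4.3.3 (limma 3.58.1 installed): TMM scaling, filterByExpr, 5 group means over all 15 libraries, two-sided quasi-likelihood tests and Benjamini-Hochberg adjustment over 16841 genes, with 10 residual and 4.52 prior degrees of freedom. CPM uses the TMM-scaled library size, and SE is that of the log2 fold change. The 6 comparisons were repeated in 22 alternative fits, among them DESeq2 1.42.0, and the code was tested on simulated data. Text names every member called, the extremes of each comparison, the MCM genes and up to 4 called genes per list, and other names were chosen after seeing values. Some results of the lists are not reported here. The members and lists were chosen with earlier results of these data known. Same-numbered libraries deviated together in U251 1813 and control (correlations 0.39, 0.20 and 0.24 across genes) and in the controls of both lines (0.42, 0.26 and 0.32). Libraries numbered 2 and 3 also did so crosswise, with 0.15 and 0.11 in the former and 0.27 and 0.30 in the latter. The values thus cannot tell pairs apart from a shared difference of replicate 1 from replicates 2 and 3. The replicate block rests on them and not on a label. Coordinates are GRCh38, and promoters are from RefSeq.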

Additional observations from a re-analysis of the deposited data

Results flagged for a closer look

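For 5 replication genes the difference between the libraries labelled 1812 and the controls was not the same in both lines by the test of that difference itself (edgeR quasi-likelihood test, Benjamini-Hochberg over 16841 genes). The log2 fold change in U87 minus that in U251 was 1.10 for POLA1 (SE 0.19, adjusted p 0.00695), 1.06 for CCNE2 (SE 0.25, adjusted p 0.0311), 1.04 for MCM10 (SE 0.22, adjusted p 0.0208), 0.91 for RFC4 (SE 0.24, adjusted p 0.0448) and 0.88 for RFC3 (SE 0.18, adjusted p 0.0184). In U87 all 3 libraries labelled 1812 lay above all 3 controls for each of the 5, and in U251 the groups overlapped for 4 of them. MCM10 was the exception, at 30.9 to 35.5 CPM with hairpin 1812, against 39.2 to 44.2 CPM in the U251 controls. POLA1 kept its call in 22 of 22 alternative fits, MCM10 in 18, RFC3 in 15, CCNE2 in 12 and RFC4 in 7, and no difference changed sign. LAMP2, the targeted gene, had a log2 fold change of 0.04 in U87 and -1.12 in U251 (difference 1.16, adjusted p 0.00931).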

How the results depend on the processing

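In U87 the 14 genes called higher with the label 1812 became 0 with the compared groups alone, 6 (and 1 lower) with control replicate 1 alone, and 7 with the library type term. The median of 0.45 became 0.0018 with control replicate 1 alone. Leaving out 1 library gave 6 to 40 genes higher, 0 to 1 lower and medians of 0.29 to 0.85, with 6 without U87 control replicate 2, control replicate 3 or library 1 of the label 1812 (among 2.40%, 2.67% and 3.30% of all genes), 9 without library 3 of that label (3.07%) and 40 without U87 control replicate 1 (23.5%). In U251, genes lower with 1812 numbered 1 with the compared groups alone (among 3.27% of all genes) and 2 with the library type term, POLD2 and UHRF1 (1.72%). The median became -0.16 with control replicate 1 alone and -0.29 with the library type term. The median with 1813 became -0.017 and -0.23 in those fits. For 1812 against 1813, 2 genes were lower with the compared groups alone (among 1.85% of all genes). Leaving out 1 library gave 0 to 1 lower with 1812, 0 to 1 higher with 1813 and 0 to 1 lower for 1812 against 1813. The 1 in each case was without U87 control replicate 1, among 6.64%, 4.37% and 0.206% of all genes. Medians with 1813 were 0.051 to 0.27. For U251 control against U87 control, genes higher numbered 7 with RLE size factors, 7 with DESeq2, 2 with the compared groups alone, 12 with the library type term and 8 with the replicate block, and 15 were lower with control replicate 1 alone. Leaving out 1 library gave 4 to 20 higher, 20 without U87 control replicate 1 (29.2%). For the difference between the lines, 3 were called higher with the compared groups alone (among 1.11% of all genes) and 12 with the library type term (7.07%). The median became 0.15 with control replicate 1 alone. Leaving out 1 library gave 1 to 27 higher and medians of 0.24 to 0.69, the highest without U87 control replicate 1 (among 11.2% of all genes higher). The replicate block gave 19 genes higher in U87 (among 8.11% of all genes), 6 in the difference between the lines (2.77%) and 0 in U251 with 1813 (0.0238%). In U87 same-numbered libraries had correlations of 0.02, -0.09 and 0.12 across genes, which cannot show whether they were paired. For the 43 genes replicate 1 lay above both others for 38 in the U87 controls and for 35 in the U87 libraries labelled 1812. Of 638 values of called genes under the alternatives, 505 kept their call, 133 lost it and 0 changed sign. The causes were not tested. The spread is taken from 3 libraries a group, and no member had fewer than 105 counts in a library.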
